A study of Homo sapiens with 16 samples.

Results

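Occupancy of the genome by MITF was compared between WM164 cells overexpressing GFP, the control line, and WM164 cells overexpressing MAFG. WM164 is an established human melanoma cell line. The comparison rests on 6 of the 16 libraries of the series: 3 anti-MITF CUT&RUN libraries from the GFP cells and 3 from the MAFG cells, each deposited as 1 list of called peaks. Both lines grew in the same medium, and the libraries were made with the same kit. Whether a line is a clone or a pool, which promoter drives the transgene, and whether replicates came from separate cultures are not given in the sources used here, so the spread between replicates may be technical. Merging peaks that overlapped or touched gave 29820 regions over the 6 libraries, of which 17346 were called in at least 2 of 3 GFP-cell libraries and are called the GFP-cell consensus. The MAFG-cell consensus, by the same rule, held 2005 regions. A consensus region of GFP cells was counted as kept when at least 2 of 3 MAFG-cell libraries had a peak there.

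MITF is a basic helix-loop-helix leucine zipper protein that binds short palindromes of the E-box type and switches on the genes of pigment cells. Its targets include the enzymes and structural proteins of the melanosome, factors of melanocyte identity, survival genes, and, through sites that it can share with its relatives TFEB and TFE3, genes of the lysosome and of nutrient sensing. MAFG is a small MAF protein; it binds DNA as a dimer and has no transactivation domain of its own, so that its partner sets whether a site is activated or repressed. CUT&RUN reads occupancy by tethering a nuclease to an antibody in permeabilised nuclei and sequencing the fragments that are released.

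Sequences of some kept and some lost promoters, with and without E-boxes, are shown so that the later motif counts can be read against actual letters. The following runs are the 250 bases before the transcription start, 5′ to 3′ on the gene's strand, from RefSeq on GRCh38.p14, the genome release of the build that the submitters' processing notes list. Capitals mark the E-box CACGTG and the variant CATGTG, the latter also where it reads CACATG on this strand. All 8 lie within a consensus region of GFP cells, and the first 5 belong to promoters kept in MAFG cells.
CREBRF, chr5:173056102-173056351, plus strand: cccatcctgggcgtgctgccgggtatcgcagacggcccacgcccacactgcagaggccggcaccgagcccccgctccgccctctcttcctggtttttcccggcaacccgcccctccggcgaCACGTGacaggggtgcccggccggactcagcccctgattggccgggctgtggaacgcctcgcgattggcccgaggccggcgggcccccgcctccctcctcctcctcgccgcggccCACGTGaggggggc
DHX35, chr20:38962094-38962343, plus strand: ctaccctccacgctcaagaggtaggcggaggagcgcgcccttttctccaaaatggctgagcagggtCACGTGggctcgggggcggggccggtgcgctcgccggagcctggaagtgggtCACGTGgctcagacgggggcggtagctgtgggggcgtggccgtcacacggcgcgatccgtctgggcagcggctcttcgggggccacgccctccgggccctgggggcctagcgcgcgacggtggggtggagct
FNIP1, chr5:131797018-131797267, minus strand: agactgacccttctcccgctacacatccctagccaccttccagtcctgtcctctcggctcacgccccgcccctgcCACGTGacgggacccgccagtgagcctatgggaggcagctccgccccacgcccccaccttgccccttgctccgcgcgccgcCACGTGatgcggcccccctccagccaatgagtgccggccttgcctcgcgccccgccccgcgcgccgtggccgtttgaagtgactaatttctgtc
GPNMB, chr7:23246525-23246774, plus strand: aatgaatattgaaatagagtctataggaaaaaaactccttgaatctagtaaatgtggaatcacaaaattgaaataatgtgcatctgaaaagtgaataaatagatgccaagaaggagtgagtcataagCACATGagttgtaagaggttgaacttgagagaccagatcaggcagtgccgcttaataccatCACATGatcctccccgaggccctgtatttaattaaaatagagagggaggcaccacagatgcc
FLCN, chr17:17237169-17237418, minus strand: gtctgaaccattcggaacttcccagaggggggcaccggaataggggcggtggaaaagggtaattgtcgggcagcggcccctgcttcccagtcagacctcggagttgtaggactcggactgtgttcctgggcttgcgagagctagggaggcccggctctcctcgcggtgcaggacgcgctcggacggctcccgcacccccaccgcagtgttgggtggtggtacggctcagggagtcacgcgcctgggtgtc
The next 3 belong to promoters with a peak in 3 of 3 GFP-cell libraries and in 0 of 3 MAFG-cell libraries.
CTSA, chr20:45891085-45891334, plus strand: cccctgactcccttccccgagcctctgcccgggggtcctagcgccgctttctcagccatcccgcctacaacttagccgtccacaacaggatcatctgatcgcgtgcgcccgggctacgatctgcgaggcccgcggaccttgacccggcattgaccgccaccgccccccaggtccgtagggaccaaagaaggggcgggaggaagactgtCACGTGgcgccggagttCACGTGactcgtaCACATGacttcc
BLOC1S3, chr19:45178534-45178783, plus strand: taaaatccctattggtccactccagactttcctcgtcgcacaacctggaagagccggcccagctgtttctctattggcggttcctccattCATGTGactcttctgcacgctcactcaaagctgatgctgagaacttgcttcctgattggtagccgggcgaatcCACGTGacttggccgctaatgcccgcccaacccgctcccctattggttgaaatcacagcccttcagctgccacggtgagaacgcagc
LPCAT3, chr12:7018477-7018726, minus strand: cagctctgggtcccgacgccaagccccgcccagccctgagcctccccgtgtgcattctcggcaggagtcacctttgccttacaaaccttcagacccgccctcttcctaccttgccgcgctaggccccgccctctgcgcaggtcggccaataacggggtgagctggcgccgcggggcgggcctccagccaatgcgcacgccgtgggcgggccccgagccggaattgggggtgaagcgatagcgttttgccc
CREBRF, DHX35 and FNIP1 each carry 2 copies of CACGTG, and GPNMB carries 2 of CATGTG. FLCN was kept with neither, as was DDB2. CTSA also carries 2 copies of CACGTG and BLOC1S3 carries 1, whereas LPCAT3 carries none, so an E-box was present or absent in this window on both sides. LAMP1, whose promoter region had no MAFG-cell peak, carries 5 copies of CACGTG. CREBRF encodes a regulator of cellular energy balance, DHX35 an RNA helicase, FNIP1 a partner of folliculin in nutrient sensing, GPNMB a glycoprotein of melanosomes and lysosomes, FLCN the folliculin protein that FNIP1 binds, CTSA a lysosomal protease, BLOC1S3 a subunit of a complex that sorts cargo to melanosomes, and LPCAT3 an enzyme of phospholipid remodelling.

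Far fewer MITF peaks were called in MAFG cells, and nearly all of them lay at sites also called in GFP cells. The GFP-cell libraries held 19828, 20117 and 20102 peaks and the MAFG-cell libraries 2491, 2116 and 2495. Every MAFG-cell list was shorter than every GFP-cell list (log2 difference -3.08, exact permutation test, two-sided, p = 0.1 with 3 libraries against 3, the smallest p that this design allows). Of the 29820 regions, 7899 (26.5%) were called in all 3 GFP-cell libraries and in no MAFG-cell library, while 3 (0.0101%) had the reverse distribution and 1146 (3.84%) had a peak in each of the 6. Of the 2005 regions of the MAFG-cell consensus, 1954 (97.5%) were also in the GFP-cell consensus, 38 were called in 1 GFP-cell library and 13 in none. Of the 17346 regions of the GFP-cell consensus, 1954 (11.3%) were kept and 13918 (80.2%) had no peak in any MAFG-cell library. The MAFG-cell set was therefore close to a subset of the GFP-cell set.

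The lists do not come from equal conditions of calling. They give no read counts, so fragments at each summit and the local background were recovered from the authors' fold enrichment and p-value, which matched a whole number of fragments for 100% of tested peaks in each of the 6 libraries. Recovered depth was 1.2, 1.63 and 1.34 fragments per kb in the GFP-cell libraries and 1.51, 1.73 and 1.39 in the MAFG-cell libraries, so the depths of the lines overlapped. The depth of the control used in calling was 2.36 to 2.37 fragments per kb for GFP cells and 0.780 to 0.781 for MAFG cells. In calling, the pileups of the MAFG-cell libraries had been multiplied by 0.517, 0.452 and 0.561, and those of the GFP-cell libraries by 1. The weakest called peak had 5 fragments at its summit in each GFP-cell library and 10, 12 and 9 in the MAFG-cell libraries. Divided by the library's fragments per kb, a measure called scaled fragments here, the weakest peaks stood at 4.18, 3.07 and 3.74 in GFP cells and at 6.61, 6.95 and 6.47 in MAFG cells. A site could thus be called in GFP cells at a level at which none was called in MAFG cells, and line, control depth and calling threshold cannot be told apart by these lists.

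**Figure D1:**
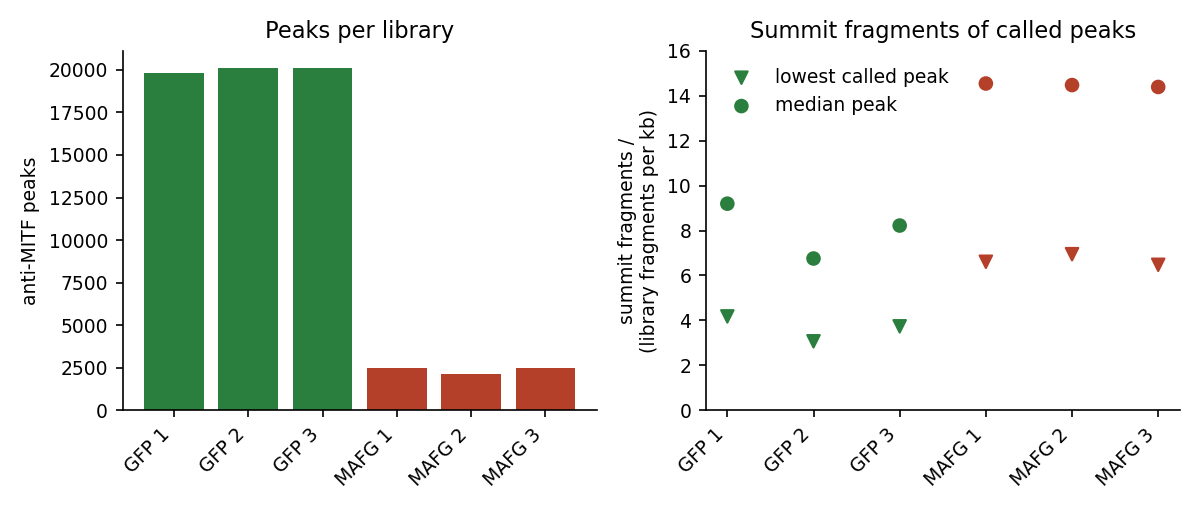
Peaks per anti-MITF library (left, bars) and the scaled fragments at the summit of the weakest called peak (triangles) and of the median peak (circles) of each library (right). GFP-cell libraries, in green, held 19828 to 20117 peaks and reached down to 3.07 to 4.18 scaled fragments. MAFG-cell libraries, in red, held 2116 to 2495 and stopped at 6.47 to 6.95.

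Whether a site was kept went with how strong it was in GFP cells. Among consensus regions with fewer than 6 scaled fragments on average in GFP cells, 11 of 2422 (0.454%) were kept. The share was 5.46% from 8 to 10 scaled fragments, 23.8% from 12 to 15, 42.3% from 15 to 20, 59.6% from 20 to 30, and 79.5% (97 of 122) above 30. Regions called in all 3 GFP-cell libraries were kept in 17.0% of cases and those called in 2 of 3 in 1.28%. Regions called in 3 of 3 MAFG-cell libraries were also wider in the merged set than those called in none, with medians of 1867 and 1041 bp. Merging links width with the number of libraries by construction, so the widths are no separate trait of kept sites. Strong sites were not all kept: 17 of the 122 regions above 30 scaled fragments had no peak in any MAFG-cell library.

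Promoter and distal sites were then taken apart, a promoter site being one whose summit lay within 1000 bp of the start of a protein-coding gene. Of 4991 promoter regions of the GFP-cell consensus, 522 (10.5%) were kept, and of 12355 distal regions 1432 (11.6%). Per MAFG-cell library, 12.6%, 11% and 11.7% of promoter regions and 13.6%, 11.6% and 13.5% of distal regions had a peak. The promoter share was the lower one in each of the 3 libraries, by 1.16 percentage points on average (-1.16 ± 0.644, SD, n = 3, exact sign-flip permutation test, p = 0.25, the smallest p that 3 libraries allow). The gap was -2.37 percentage points at −log10 q of at least 5, -1.91 with promoters within 5000 bp, -7.09 with equal numbers of best peaks by fold enrichment and -11.6 by scaled fragments, each with p = 0.25 by the same exact test. With promoters taken as H3K4me3 peaks of both lines it was -0.394 (exact sign-flip permutation test, p = 0.5). From 15 to 20 scaled fragments in GFP cells, 36.4% ± 2.24 of promoter regions and 45.4% ± 2.81 of distal regions were called per MAFG-cell library (SD, n = 3). From 20 to 30 the shares were 49.5% ± 2.13 and 64.4% ± 0.780, and above 30 they were 63.1% ± 3.12 and 86.3% ± 1.36 (SD, n = 3). In these 3 bins, and in those from 8 to 15, the promoter share lay below the distal share in every MAFG-cell library. The bins above 30 hold 37 promoter and 85 distal regions. Local background in GFP cells, given as a multiple of a library's genome-wide background, was also higher at promoters in every bin below 30. Medians were 2.99 against 2.71 from 15 to 20 and 3.85 against 3.57 from 20 to 30. Only in the bin above 30 was it lower at promoters (4.56 against 5.18). The part of local background in the gap was not tested. Such multiples rest on few control fragments. Between the lines they are not on one scale, because the control of MAFG cells was the shallower and its steps are coarser.

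**Figure D2:**
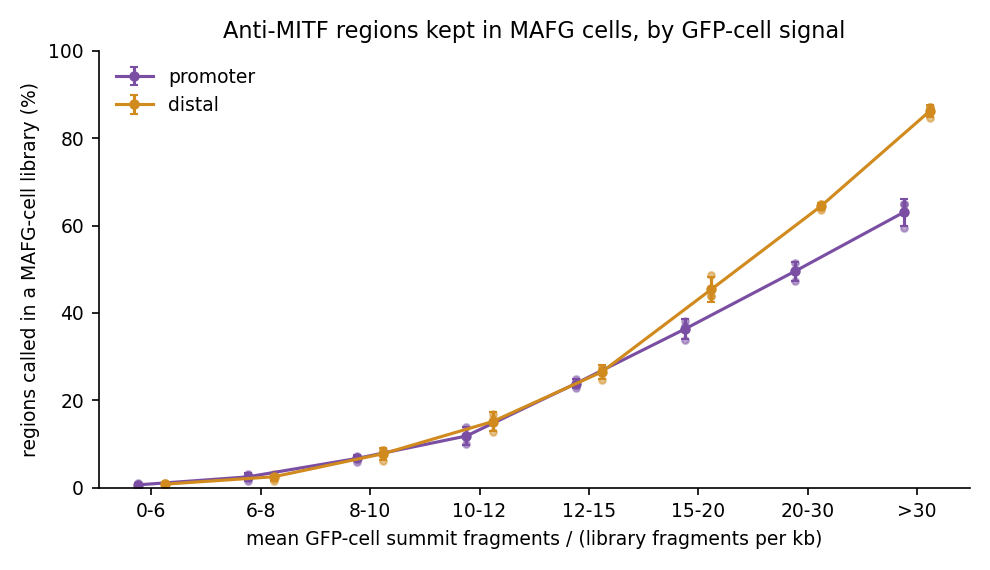
Share of GFP-cell consensus regions called in each MAFG-cell library (vertical axis, percent) in 8 bins of mean GFP-cell scaled fragments (horizontal axis), for promoter and distal regions. Small points are the 3 MAFG-cell libraries, larger points their mean, and bars 1 SD. Both curves rise from under 1% to 63.1% for promoters and 86.3% for distal regions, and the distal curve lies above the promoter curve from 8 scaled fragments on.

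The share of a library's peaks at promoters overlapped between the lines with all peaks and did not under several other settings. With all peaks it was 27.6%, 27.3% and 26.6% in GFP cells, against 26.9%, 27.6% and 24.8% in MAFG cells, so the groups overlapped (difference -0.72 percentage points, exact permutation test, two-sided, p = 0.7 with 3 libraries against 3). Without MAFG-cell replicate 3 the difference was 0.0741 percentage points. When every library was reduced to its 2116 best peaks, the groups no longer overlapped: promoters held 28.8%, 29.1% and 28.8% of the GFP-cell peaks and 26.4%, 27.6% and 24.2% of the MAFG-cell peaks ranked by fold enrichment (difference -2.80 percentage points, p = 0.1 by the same exact test). Ranked by scaled fragments, the difference was -4.10 percentage points (p = 0.1 by the same exact test). It was -3.78 percentage points for peaks with −log10 q of at least 5 (exact permutation test, p = 0.1). With promoters within 5000 bp of a start it was -3.0 (exact permutation test, p = 0.1), from shares of 38.1%, 37.9% and 37.1% in GFP cells, against 35.1%, 35.3% and 33.6% in MAFG cells. With promoters taken as H3K4me3 peaks of both lines it was -0.72 (exact permutation test, p = 0.6).

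Marks from the same cells add to the picture of kept sites. H3K4me3, the histone mark of active promoters, was profiled in 1 library per line and has no replicate. Of GFP-cell consensus regions overlapping an H3K4me3 peak in both lines, 11% were kept, against 11.4% of those with no such peak in either line and 11.1% of those marked in GFP cells alone. Only 20 regions carried the mark in MAFG cells alone, and 11 of them were kept. Overlap with the anti-MAFG consensus of GFP cells went with a kept share of 12.8%, and the other regions had 9.09%. The overlapping regions were stronger for MITF in GFP cells, with a median of 9.19 scaled fragments against 7.86. Among regions of 15 to 30 scaled fragments the order was reversed. There, 73.9% of regions called in 3 of 3 MAFG-cell libraries overlapped that consensus, against 78.8% of those called in none. Of the 855 regions that touched the anti-MAFG consensus of MAFG cells, 270 (31.6%) were kept. These regions were also stronger for MITF in GFP cells (median 10.8 scaled fragments against 8.58 over all 17346). Among regions of 15 to 30 scaled fragments the order held here. Of those called in 3 of 3 MAFG-cell libraries 17.3% overlapped the anti-MAFG consensus of MAFG cells, against 6.82% of those called in none. As a check of identity, H3K4me3 lay at the starts of all 6 melanocyte markers fixed for this purpose (MITF, SOX10, PMEL, MLANA, TYR and DCT) in both lines. It lay at none of 5 keratinocyte, 4 T cell and 3 endothelial markers in either line. Of 5 fibroblast markers, PDGFRA alone carried the mark, in GFP cells.

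At the sites called in all 6 libraries the MITF signal was of like size in both lines once depth was taken into account. Median scaled fragments over these 1146 regions were 18.4, 14.7 and 16.4 in the GFP-cell libraries and 17.8, 17.4 and 17.3 in the MAFG-cell libraries. The median log2 difference, MAFG minus GFP cells, was 0.08, and 99.6% of regions lay within 2-fold. The lines did not overlap at 166 regions (14.5%) that were higher in MAFG cells and at 49 (4.28%) that were lower. The deposited fold enrichment gave another view: its medians were 11.5, 10.5 and 10.8 in the GFP line and 7.73, 7.50 and 7.52 in the MAFG line. By that measure 587 regions (51.2%) were lower in MAFG cells without overlap and 60 (5.24%) higher. These regions passed only where all 6 libraries had a peak, so their values say nothing of sites lost from the lists.

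The order of the shared sites also depended on the measure. By scaled fragments, Spearman's rho between libraries averaged 0.766 within GFP cells, 0.811 within MAFG cells and 0.724 between the lines (0.690 to 0.746 over 9 pairs). By fold enrichment the averages were 0.721, 0.643 and 0.119. The local background had averages of 0.832 and 0.903 within the lines and 0.302 between them. These are correlations across 1146 sites that share libraries and controls, and sites are not independent replicates. Libraries of a line thus ordered their sites alike by each measure, and libraries of different lines did so by fragments but hardly by fold enrichment.

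**Figure D3:**
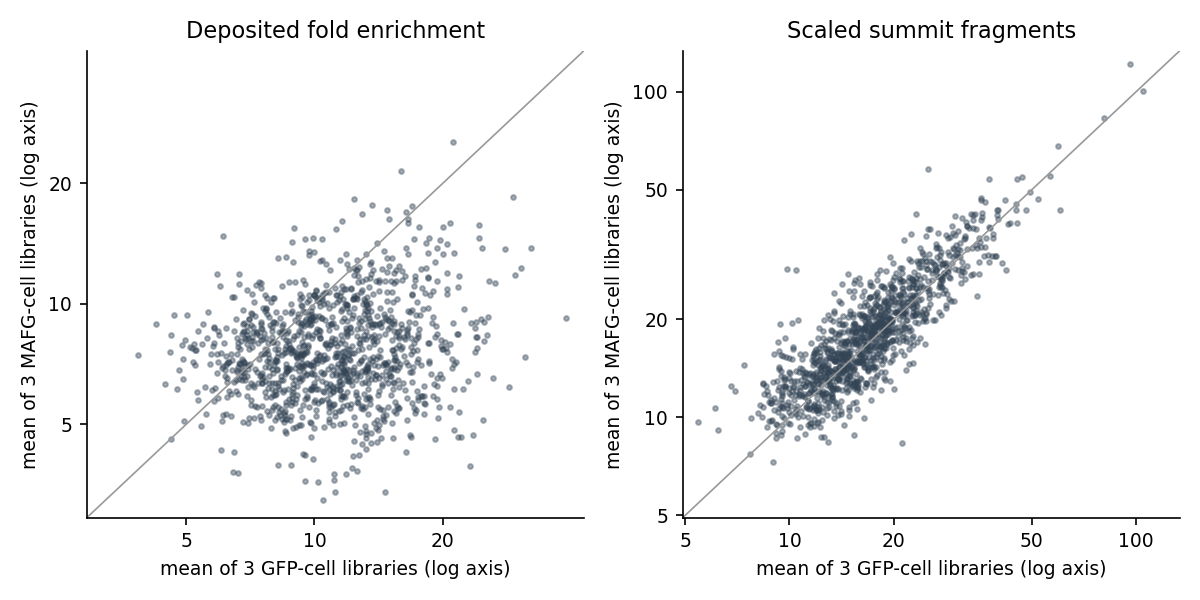
Mean of the 3 GFP-cell libraries (horizontal axis) against mean of the 3 MAFG-cell libraries (vertical axis) at the 1146 regions called in all 6, for the deposited fold enrichment (left) and scaled summit fragments (right). All axes are logarithmic and the line marks equal values. By fold enrichment most points lie below the line and spread widely. By scaled fragments they follow it, 99.6% within 2-fold.

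Sites that headed the lists of both lines included the promoters of DDB2, DHX35, FLCN, CREBRF and ST13. At the promoter of DDB2, which recognises ultraviolet damage in DNA (chr11:47213880-47215757), summit fragments were 43, 32 and 49 in GFP cells compared with 56, 36 and 38 in MAFG cells. At that of FLCN, folliculin (chr17:17235329-17238571), they were 35, 40 and 34 in GFP cells, against 45, 55 and 53 in MAFG cells. At that of DHX35 (chr20:38961096-38963251), whose paired E-boxes are printed above, they were 34, 38 and 42 in the GFP line and 42, 47 and 37 in the MAFG line. The ranges of the lines overlapped at DDB2 and DHX35. At FLCN they did not, and scaled fragments averaged 26.4 ± 2.50 in GFP cells compared with 33.2 ± 4.36 in MAFG cells (SD, n = 3). Among distal regions the leaders were a site within the span of ABHD12 (chr20:25309168-25311417), with 56, 61 and 47 fragments in GFP cells, against 63, 66 and 63 in MAFG cells, and sites nearest to AGAP1, IL16 and CGGBP1. In scaled fragments the ranges of the lines overlapped at ABHD12. The ABHD12 site ranked on average at the 98.9th percentile of its list in GFP cells and at the 99.98th in MAFG cells, counted by fold enrichment with 100 as the highest.

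Some of the sites of GFP cells that ranked highest by fold enrichment had no peak in any MAFG-cell library. At the promoter shared by CENPM, a centromere protein, and SMIM45 (chr22:41945920-41948414), the GFP-cell libraries held 47, 46 and 62 summit fragments. Within TMEM161B (chr5:88250323-88252764), 17276 bp from the nearest start, they held 37, 53 and 46. At the promoter of AGA, a lysosomal enzyme that breaks down glycoproteins (chr4:177441626-177443258), they held 24, 32 and 29, at LPCAT3 31, 34 and 30, and at BLOC1S3 22, 25 and 27. In scaled fragments the regions at CENPM and TMEM161B averaged 38.0 ± 9.12 and 32.6 ± 1.73 (SD, n = 3). Those at AGA, LPCAT3 and BLOC1S3 averaged 20.5, 23.1 and 18.0. No MAFG-cell peak was called at 549 of 1259 consensus regions from 15 to 20 scaled fragments and at 140 of 535 from 20 to 30. The local background of the named regions in MAFG cells is unknown, so the level needed for a call there is unknown too. H3K4me3 was called at the promoters of AGA, LPCAT3 and BLOC1S3 in both lines. The GFP-cell region with the most fragments and no MAFG-cell peak, singled out after its values were seen, lay at the promoter of ANAPC15, a subunit of the anaphase-promoting complex, with 92, 104 and 78 fragments. Its local background in GFP cells was 13.8 times the genome-wide one.

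The 3 regions called in 3 of 3 MAFG-cell libraries and in no GFP-cell library were distal and ranked low by fold enrichment, at mean percentiles of 34.2, 26.7 and 21.0 of the MAFG-cell lists. They lay 13159 bp from DAPL1, 7297 bp from NBPF1 and, on chromosome 3 from 62965218 to 62966004, more than 50000 bp from any protein-coding gene. Summit fragments were 34, 26 and 33 at the site near DAPL1, 32, 47 and 40 near NBPF1, and 36, 36 and 27 on chromosome 3. In scaled fragments they averaged 20.4, 25.7 and 21.4, above the median peak of the MAFG-cell libraries (14.4 to 14.5). Their local background in MAFG cells was 7.35, 11.2 and 9.17 times the genome-wide one, and each touched the anti-MAFG consensus of those cells. With the shallow control of these cells, such multiples rest on few control fragments. No promoter was gained by this rule.

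With 2116 best peaks in every library, lists of equal length bring the numbers of sites called in one line only nearer to each other by construction. Ranked by fold enrichment, 297 regions (5.43% of 5472) had a peak in 3 of 3 GFP-cell and 0 of 3 MAFG-cell lists, 310 (5.67%) the reverse, and 346 (6.32%) had a peak in each of the 6. Ranked by −log10 p, these counts were 290 (5.62%), 250 (4.84%) and 441 (8.54%). Ranked by scaled fragments, the counts were 309 (6.35% of 4863), 195 (4.01%) and 504 (10.4%). The MAFG-cell sites of these shortened lists were seldom absent from GFP cells: 286 of the 310 ranked by fold enrichment (92.3%) were called in all 6 full lists, and 1 was absent from all full GFP-cell lists. Of the 297 GFP-cell sites, 253 (85.2%) had no peak in any full MAFG-cell list, and of the 309 ranked by scaled fragments all 309 had none. List length largely sets this contrast. The full MAFG-cell lists, of 2116 to 2495 peaks, were hardly shortened, whereas the GFP-cell lists were cut from 19828 or more. Promoters made up 38.2% of those 309 GFP-cell sites, 28.2% of the 195 MAFG-cell sites and 24.6% of the 504 common ones. Among the leading MAFG-cell sites was the promoter of KIDINS220, a neurotrophin receptor scaffold, with 17, 14 and 12 fragments in the GFP line and 27, 35 and 30 in the MAFG line. A site within TANC1 held 15, 11 and 16 fragments in GFP cells compared with 49, 51 and 32 in MAFG cells, so that the lines did not overlap at either.

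The largest differences in either direction at sites of all 6 libraries, picked after their values were seen, were distal. Scaled fragments averaged 9.87 ± 1.16 in GFP cells and 28.6 ± 0.677 in the MAFG line (SD, n = 3), a ratio of 2.89, at a site on chromosome 2 from 77578090 to 77579621 with no protein-coding gene within 50000 bp, and the ratio was 2.72 at TANC1. At the first of these the local background was 1.29 times the genome-wide one in GFP cells and 13.2 times in MAFG cells. The control of MAFG cells was shallower (0.780 to 0.781 against 2.36 to 2.37 fragments per kb), so these multiples are not on one scale. Near XDH, xanthine dehydrogenase, fragments were 24, 33 and 31 in GFP cells, against 11, 17 and 11 in MAFG cells, a ratio of 0.394 in scaled fragments. These values are given without a test.

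Genes of the melanocyte lineage were read from 3 lists with 27 genes. A region was given to its nearest protein-coding gene within 50000 bp. By this rule 21 of the 27 had a GFP-cell consensus region and 12 of those 21 (57.1%) also had a MAFG-cell one. Over all protein-coding genes the numbers were 8070 and 1419 (17.6%), and 7.13% of all such genes had a MAFG-cell region. A gene with more regions has more chances to keep one. The 21 genes held 80 regions and the 8070 at most 17346, so the gene shares are not like for like. Counted by region, 20 of the 80 regions of these genes (25%) were kept, against 11.3% of all. MITF itself had 20 of the 80 regions and 8 of the 20 kept ones, and without it 12 of 60 were kept. Median GFP-cell signal was 9.16 scaled fragments in the 80 regions, 7.97 without MITF and 8.58 over the whole consensus. The lists were chosen with results of these data known and hold textbook MITF targets, so these counts are a description.

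Of the 7 pigment enzymes and transporters, 5 had a GFP-cell region and 1, TYR, kept one. By region, 1 of 11 was kept (9.09%), near the 11.3% of all regions. TYR encodes tyrosinase, the rate-limiting enzyme of melanin synthesis. Its region, 1611 bp from the start (chr11:89174968-89178999), held 20, 28 and 21 fragments in the GFP line and 33, 36 and 23 in the MAFG line, ranges that overlap. TYRP1 and DCT, the enzymes that act after tyrosinase, had weak regions in GFP cells and none in MAFG cells: 6, 11 and 11 fragments at TYRP1, and 12, 9 and 11 at the promoter of DCT. SLC24A5, a potassium-dependent exchanger of the melanosome, had 16, 12 and 16 fragments at its promoter in GFP cells and 19 in 1 MAFG-cell library. SLC45A2, a transporter of the melanosome, had a promoter region in 2 GFP-cell libraries and none in MAFG cells. OCA2 and TPCN2 had no consensus region in either line.

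Of the 10 genes of melanosome structure and transport, 9 had a GFP-cell region and 8 kept 1 each, 8 of 25 regions in all (32.0%, against 11.3% of all regions). RAB38, a small GTPase that brings enzymes to the melanosome, had a region within the gene (chr11:88150892-88153467) with 50, 44 and 47 fragments in GFP cells compared with 52, 49 and 54 in MAFG cells. MLPH, melanophilin, which links melanosomes to the actin motor, had one 3300 bp from its start (chr2:237481835-237484118) with 39, 36 and 28 fragments in GFP cells, against 32, 42 and 34 in MAFG cells. MLANA, the antigen also called Melan-A, had one within the gene with 13, 17 and 12 fragments in the GFP line and 17, 17 and 16 in the MAFG line. The groups overlapped at MLPH, MLANA and RAB38. At the GPNMB promoter, whose E-boxes are printed above, fragments were 22, 26 and 23 in GFP cells and 25 and 26 in the 2 MAFG-cell libraries with a peak. At the promoter of BLOC1S1, a subunit of the same sorting complex as BLOC1S3, they were 16, 18 and 22 in GFP cells compared with 26, 25 and 14 in MAFG cells. RAB27A, MYO5A and HPS4 completed the 8. PMEL, the fibril protein of the melanosome, had 1 region, with 7, 14 and 13 fragments in GFP cells and no peak in MAFG cells. GPR143 had none in either line.

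**Figure D4:**
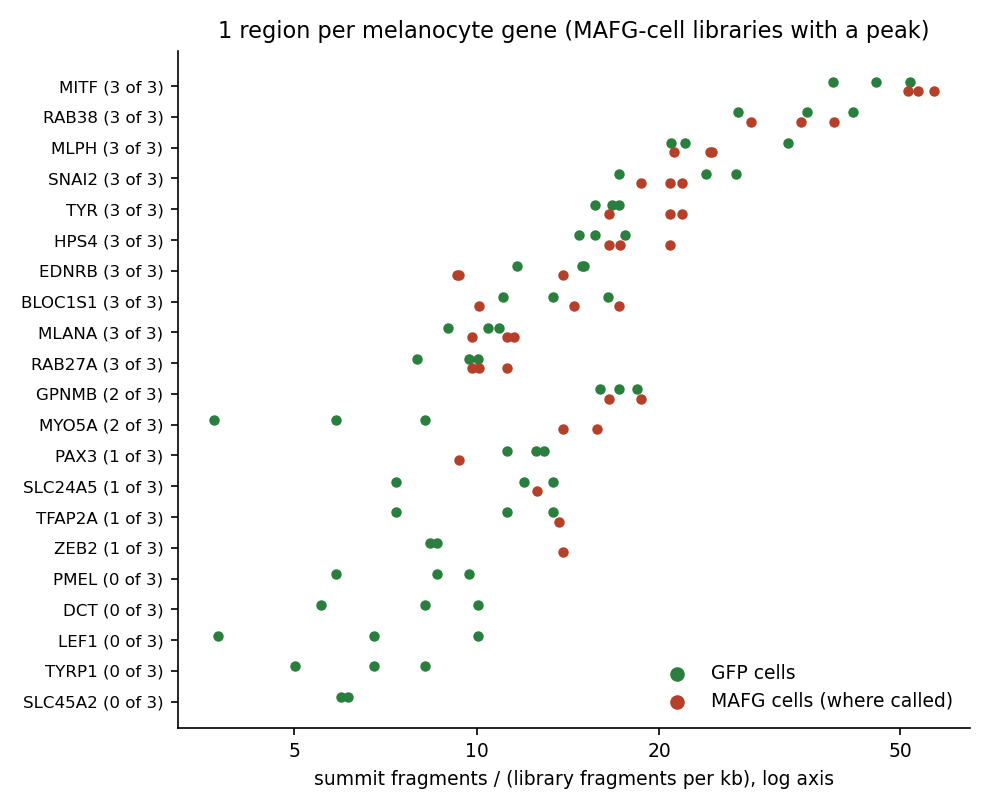
Scaled summit fragments per library (horizontal axis, logarithmic) at 1 GFP-cell consensus region for each of the 21 listed melanocyte genes that had any: the region called in most MAFG-cell libraries and, among those, the one strongest in GFP cells. Green points are GFP-cell libraries and red points MAFG-cell libraries with a peak, whose number stands beside the gene. At MYO5A, TFAP2A and ZEB2 the red points lie to the right of all green ones and at PAX3 to the left, and the 5 genes at the bottom have none.

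Among the 10 lineage regulators, 7 had a GFP-cell region and 3 kept any, with 11 of 44 regions kept (25%). Without MITF 3 of 24 were kept (12.5%), near the 11.3% of all regions. At the MITF locus itself, 8 of 20 regions were kept. Its strongest region (chr3:69838041-69840872), inside the gene, held 62, 63 and 61 fragments in GFP cells, against 81, 89 and 79 in MAFG cells. In scaled fragments the means were 45.4 ± 6.57 and 54.0 ± 2.68 (SD, n = 3), and the ranges of the lines overlapped. By fold enrichment the same region ranked at the 94.7th percentile in GFP cells and at the 11th in MAFG cells. Its local background was 8.85 and 31.6 times the genome-wide one, from controls of unlike depth. A MITF promoter region (chr3:69935775-69940770) held 32, 28 and 27 fragments in GFP cells and 38 and 29 in 2 MAFG-cell libraries. SNAI2, a repressor of epithelial genes that is active in the neural crest lineage, kept a distal region with 32, 28 and 32 fragments in the GFP line and 33, 36 and 26 in the MAFG line. Its promoter region, with 30, 33 and 26 fragments in GFP cells, had no MAFG-cell peak. EDNRB, the endothelin receptor of melanoblasts, kept 2 of 6 regions, among them its promoter with 28, 32 and 24 fragments in GFP cells and 22 and 28 in 2 MAFG-cell libraries. PAX3, TFAP2A, LEF1 and ZEB2, transcription factors of the lineage, kept none of 13 regions. KIT, SOX10 and MC1R had no region by the nearest-gene rule. SOX10 and MC1R each had regions within 5000 bp of the gene body that are nearer to, or inside, another gene, and 1 of these was in the MAFG-cell consensus for each.

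Of 12 targets in survival, the cell cycle and metabolism, 11 had a GFP-cell region and 4 kept any, with 5 of 35 regions kept (14.3%, against 11.3% of all regions). CDK4, the cyclin-dependent kinase of the G1 phase, kept its promoter, with 21, 32 and 20 fragments in GFP cells compared with 23, 19 and 27 in MAFG cells. BIRC7, an inhibitor of apoptosis also called livin, kept its promoter, with 21, 29 and 23 in GFP cells, against 31, 30 and 26 in MAFG cells. PPARGC1A, the coactivator of mitochondrial biogenesis, kept 2 of 14 regions, the stronger one with 33, 23 and 26 fragments in the GFP line and 33, 28 and 26 in the MAFG line. DIAPH1, an actin-nucleating formin, kept 1 of 4. BCL2A1, a survival gene of the melanocyte lineage, kept none of 4, although a region 7789 bp from its start held 24, 26 and 25 fragments in GFP cells. HIF1A, CDK2, CDKN1A, CDKN2A, MET and BCL2 also kept none, and TBX2 had none in either line.

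Of 14 genes of the lysosome and of nutrient sensing, 12 had a GFP-cell region and 5 kept one. Of their 16 regions 5 were kept (31.2%, against 11.3% of all regions). The 16 regions were also stronger in GFP cells, with a median of 11.9 scaled fragments against 8.58 over the whole consensus. The kept ones were promoters of FLCN and FNIP1, which together act on the RAG GTPases, of RRAGD, one of those GTPases, and of ATP6V1H, a subunit of the proton pump, and a region within SQSTM1, the autophagy receptor p62. At FNIP1 summit fragments were 41, 40 and 36 in GFP cells and 32 and 30 in 2 MAFG-cell libraries. At RRAGD they were 19, 24 and 26 in GFP cells and 17 and 27 in 2 MAFG-cell libraries. At SQSTM1 they were 35, 34 and 33 in GFP cells compared with 40, 44 and 32 in MAFG cells. Among the listed hydrolases and membrane proteins of the lysosome, CTSA held 16, 21 and 19 fragments in GFP cells with no MAFG-cell peak, and LAMP1 held 13, 8 and 8. HEXA, with 15, 21 and 19 fragments in GFP cells, had a peak in 1 MAFG-cell library. CTSD, MCOLN1, ATP6V0D1 and FNIP2 kept none, and TFEB and TFE3 had no region. Outside the list, and singled out after the values were seen, promoters of LAMTOR1 and RRAGC, also part of nutrient sensing at the lysosome, were called in all 6 libraries, with averages of 32.6 and 23.2 scaled fragments in GFP cells. So were promoters of the lysosomal hydrolases SGSH and ARSK and of the lysosomal membrane proteins CD164, SPNS1 and CLCN6. The region at ARSK is also that at SKIC3. That of CD63 was called in 2 of 3 MAFG-cell libraries. All of these were picked among promoters kept in MAFG cells, so they give no share for lysosomal genes. The promoter of AGA, the lysosomal enzyme named above, had no MAFG-cell peak.

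Of 8 genes that mark dedifferentiated, MITF-low melanoma cells, among them NGFR and JUN, 5 had a GFP-cell region and none of their 12 regions was kept, where the share over all regions was 11.3%. Median signal of these regions was 9.0 scaled fragments. Of 10 known targets of MAF and NRF2 dimers, 8 had a GFP-cell anti-MITF region and 2 kept any, with 2 of 20 regions kept, a share near that of all regions. FTH1, the heavy chain of ferritin, kept a region 4761 bp away with 32, 31 and 32 fragments in GFP cells, against 36, 42 and 26 in MAFG cells. TXNRD1, thioredoxin reductase, kept a weak one with 9, 9 and 12 in GFP cells and 16 and 14 in 2 MAFG-cell libraries. Both kept regions overlapped the anti-MAFG consensus of MAFG cells. GCLC, the catalytic subunit of glutathione synthesis, had 14, 12 and 20 fragments at its promoter in GFP cells and none called in MAFG cells.

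A pair of chromosome stretches carried many of the strongest shared sites. On chromosome 3 from 60 to 75 Mb, which includes MITF, 72 of 226 consensus regions (31.9%) were kept, and on chromosome 11 from 70 to 80 Mb 31 of 135 (23%), against 10.9% of the 16985 regions elsewhere. Regions of these stretches were also stronger in GFP cells, with medians of 16.2 and 13.2 scaled fragments against 8.50 elsewhere. Of the 50 regions of all 6 libraries with the most scaled fragments in MAFG cells, 19 lay in the first stretch and 8 in the second. Median local background in GFP cells was 5.29 and 4.10 times the genome-wide one in these stretches and 1.73 times elsewhere. Kept regions of the chromosome 3 stretch had medians of 29.3 scaled fragments in the GFP line and 29.0 in the MAFG line, but their median percentile by fold enrichment was 89.6 in GFP cells compared with 41.1 in MAFG cells. Their median local background was 6.33 times the genome-wide one in GFP cells and 12.8 times in MAFG cells, from controls of unlike depth. The part of local background in these ranks was not tested. Both stretches were chosen after their values were seen. Among whole chromosomes the kept share ran from 1.48% on X (3 of 203) to 14.8% on 22 (61 of 412), and median scaled fragments in GFP cells were lowest on X (6.71) and highest on 22 (10.4).

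E-boxes were counted in windows of 300 bases at gene starts, 250 before and 50 after, in the 22182 windows that RefSeq gives for 15842 protein-coding genes. A window was placed with a region when they overlapped. CACGTG, searched on both strands (it reads the same on each), stood in 8.34% of all windows and in 5.94% of the 15044 windows with no anti-MITF region. It stood in 24.4% of windows with a kept region (169 of 694), in 23.2% of those called in 1 MAFG-cell library and in 12.4% of those called in none (540 of 4365). The longer form TCACGTG, which overlaps the first, stood in 18.9% of kept windows, in 8.0% of those with no MAFG-cell peak and in 4.44% of all. CATGTG, or CACATG on the other strand, stood in 13.3% of kept windows, 6.48% of those with no MAFG-cell peak and 8.93% of all.

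The shares were also taken within limits of signal and, separately, of base composition, which do not match the groups fully. Among windows whose region averaged 12 to 30 scaled fragments in GFP cells, 26.5% of kept windows (122 of 461) and 14.6% of those with no MAFG-cell peak (120 of 823) held CACGTG, and the median signals of these windows were 16.8 and 14.2 scaled fragments. Within 55 to 70% GC the shares were 24.5% and 13%. Mean GC content was 64.4% in kept windows and 65.2% in those with no MAFG-cell peak. With 1 window per gene the shares were 25.8% and 13.5%. As other motifs for comparison, TGACTCA, the AP-1 core that MAF dimers can extend, stood in 4.32% of kept windows, 3.0% of those with no MAFG-cell peak and 4.00% of all, and CCGGAAG, the ETS motif, in 15.9%, 18.7% and 12.8%. Windows of neighbouring starts overlap, so these shares are given without a test. A match is only a run of letters, and a window without one says nothing about the factor.

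**Figure D5:**
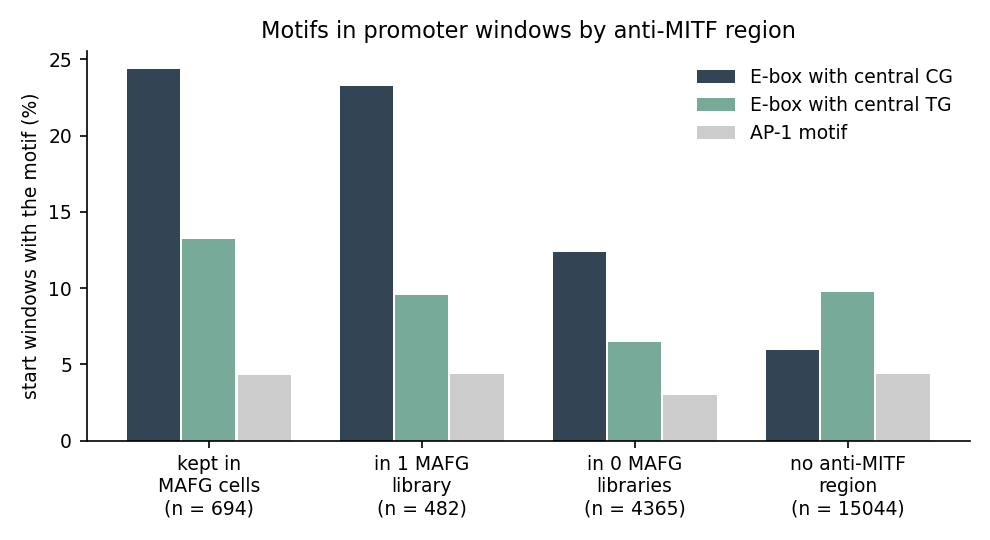
Share of 300-base start windows (vertical axis, percent) holding the E-box with central CG, the E-box with central TG or the AP-1 core, by the anti-MITF region they overlap: kept in MAFG cells, called in 1 MAFG-cell library, called in none, or no region. The number of windows stands under each group. The first E-box falls from 24.4% in kept windows to 12.4% where no MAFG-cell library had a peak and 5.94% where there was no region.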

How the data were processed

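Anti-MITF CUT&RUN in WM164 cells overexpressing GFP or MAFG was read from the authors' peak lists in narrowPeak layout, 1 list per library and none pooled. The build GRCh38 and the tools cutadapt 1.8.1, Bowtie2 2.4.1 and MACS2 2.1.1.20160309 are listed, without roles, per the submitters' processing notes. The deposited fold enrichment is a linear ratio, and p and q are deposited as −log10 values; the lowest −log10 q in the lists used here was 2.00. Anti-MAFG and H3K4me3 lists of the same deposit were used for overlap only. The IgG controls were not analysed here.

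Overlapping or touching peaks on chromosomes 1 to 22, X and Y were joined into regions, with a library counted from 1 bp on. Starts came from RefSeq GRCh38.p14 for 15842 of 20033 protein-coding genes, and both gene ends served for the rest. Percentiles are ranks of the authors' fold within a library. Summit fragments and local background were solved from fold = (pileup + 1) / (background + 1) and the Poisson upper tail, with a tolerance of 0.003 in units of the pileup and 1 scale factor per library. With that factor multiplied by 0.9, between 14% and 20% of peaks matched. This formula is inferred and not stated by the authors. Depth divides the genome-wide background by the shortest peak, taken as the fragment length. Counting and recovery were tested on simulated data.

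Named regions are, for promoter and distal sites apart, up to 5 with the best mean percentile that were called only in one line or in all 6 libraries, plus every gene of 7 lists of 71 genes. Members and lists were chosen with earlier results of these data known. The lines were compared with exact permutation tests, two-sided, over 20 assignments, and promoter with distal shares by an exact sign-flip test over 3 libraries. Alternatives were other thresholds, rankings, region definitions, promoter widths and leaving out each library. A planned E-box share around summits was not run. Same-numbered replicates of the lines did not deviate together (correlations 0.024, 0.044 and -0.025 over regions), so numbers were not taken as pairs. Python 3.11.15, NumPy 2.4.6, pandas 2.3.3 and SciPy 1.17.1 were used.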

Additional observations from a re-analysis of the deposited data

How the results depend on the processing

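With −log10 q of at least 5, 667 regions were called in all 6 libraries, 11.3% of the GFP-cell consensus was called per MAFG-cell library (12.6% with all peaks) and 7 listed melanocyte genes had a MAFG-cell consensus region (12 with all peaks). With equal numbers by fold enrichment, regions only in GFP cells, only in MAFG cells and in all 6 numbered 297, 310 and 346. Of the GFP-cell consensus of these lists, 42.9% was called per MAFG-cell library. By −log10 p the first 2 were 290 and 250. By scaled fragments, a ranking chosen after seeing the data, the 3 counts were 309, 195 and 504, and 49.3% was called per MAFG-cell library. With regions built from summits within 200 bp, they were 4120, 24 and 605, and 11.5% was called per MAFG-cell library. Over regions of 3 of 3 GFP-cell libraries, 18.6% was called per MAFG-cell library. Leaving out 1 library at a time gave -3.12 to -3.01 for the log2 peak number and -1.30 to 0.0741 for the promoter share. It gave 8193 to 9959 regions only in GFP cells, 1150 to 1426 in all 6 libraries and 3 to 8 only in MAFG cells. The share called per MAFG-cell library was 12.2% to 15.9%, and promoter minus distal was -2.05 to -0.771 percentage points. Listed melanocyte genes with a MAFG-cell consensus region numbered 10 to 12. The promoter share turned to 0.0741 without MAFG-cell replicate 3. The 3 regions only in MAFG cells became 6 and 7 without GFP-cell replicates 1 and 3, and 7 and 8 without MAFG-cell replicates 1 and 2; fewer libraries are then required to agree. With the replicate number as a block, the peak number difference was -3.08 (exact sign-flip permutation test, p = 0.25, n = 3) and the promoter share difference -0.72 percentage points (p = 0.5 by the same exact test), and no call changed. Peak number has no value with equal numbers, which fix it. The E-box share around summits was not run. Of the GFP-cell consensus, 2422 of 17346 regions averaged under 6 scaled fragments, a level below the weakest MAFG-cell peaks, and 11 of them were kept. A further 5038 averaged 6 to 8, about the level of those peaks (6.47 to 6.95), and 4732 of them had no MAFG-cell peak. Over all 13918 regions with no MAFG-cell peak the median was 7.94. At such levels an absent peak cannot be told apart from a signal under the calling threshold.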
